A study of Rattus norvegicus with 12 samples.

Results

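Cd79b, Rag1, Ebf1, Blnk and Vpreb1 were taken as a set of 5 genes of B cell development and followed in long bone of female rats after ovariectomy. A gene was measured through the array's probe sets whose annotation gives its symbol alone, and its value was the mean over those probe sets. Of the 5 genes 3 were measured, Cd79b and Blnk with 1 probe set each and Ebf1 with 3, which is 5 probe sets of 31042 and 3 genes of 14217. Rag1 and Vpreb1 were not analysed here. The set was read beside the question of whether B lymphopoiesis rises after the loss of estrogen.

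Total RNA from bone was hybridized to Affymetrix rat arrays, with 3 arrays in each of 4 groups, all from rats aged PND 81. STBB OVX rats had been fed a diet with 10% blueberry (BB) from PND 20 to PND 34 and were ovariectomized, LTBB OVX rats had been fed it from PND 20 to the end and were ovariectomized, OVX rats were ovariectomized on the casein control diet, and sham rats were sham-operated on the same control diet. Surgery was on PND 60. There was no BB group without ovariectomy. Each array held a pool of RNA from 2 to 3 rats, from at least 8 rats per group, so p-values measure the spread between pools and not between rats. The sample labels name femur and the methods the right tibia. Marrow was not sampled apart from bone, and in such bulk RNA fewer B lineage cells and less RNA per cell cannot be told apart.

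B cells arise in the marrow from lymphoid progenitors that settle on stromal cells making CXCL12, IL-7 and stem cell factor. EBF1 is a transcription factor that commits these progenitors to the B lineage, RAG1 is a subunit of the recombinase that cuts the immunoglobulin genes, and VpreB1 is part of the surrogate light chain of the pre-B cell receptor. CD79b is a signalling chain of the pre-B and B cell receptor, and BLNK is the adaptor through which the kinase SYK passes that signal to BTK and phospholipase C gamma. In mice, estrogen holds back B lymphopoiesis and ovariectomy raises the number of B cell precursors in marrow.

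The deposited values are log2 values that the authors had centred, which leaves the median of every probe set at 0. They show how a gene differs between arrays and not how strongly it is expressed, and whether any B lineage marker was present in the RNA could not be read from them. All 9 arrays of ovariectomized rats lay apart from the 3 sham arrays across the whole table: 58.9% of 14217 genes differed between OVX and sham (limma, adjusted p under 0.05), 30.3% higher and 28.6% lower. Some marker lists had mean values with the same split, and others, such as the adipocyte list (-0.15 to 0.14 in OVX and -0.22 to 0.23 in sham pools), overlapped. The 14 pan-leukocyte genes averaged -0.12 to -0.053 in STBB OVX, -0.19 to 0.081 in LTBB OVX, -0.14 to 0.033 in OVX and 0.98 to 1.45 in sham pools. The 16 skeletal muscle genes averaged -0.16 to 0.69 in STBB OVX, -2.83 to 0.63 in LTBB OVX, -2.78 to -1.17 in OVX and 3.64 to 4.39 in sham pools. The 9 osteoblast genes averaged -0.0062 to 0.060, -0.011 to 0.086 and -0.0024 to 0.047 in those groups of ovariectomized rats and -2.22 to -2.06 in sham pools. The part of these shifts in the results on B lineage genes was not tested.

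Promoters of the set were searched for 5 short motifs of B lineage transcription factors on both strands. The octamer is shown because it was found in Blnk, a measured member, and in Vpreb3, the only measured gene of the recombinase and pre-B cell receptor list. RefSeq promoters of the assembly GRCr8, which run from 250 bases before to 50 bases after the start of a gene, were held for 4 of the 5 members (Rag1, Vpreb1a, which is the current symbol of Vpreb1, Blnk and Ebf1) and for 35 measured B lineage genes. The octamer, ATTTGCAT on either strand, is bound by the factors POU2F1 and POU2F2 and their coactivator POU2AF1. It stood in 2 of the 35 promoters, those of Blnk and Vpreb3, and in 1.78% of all 33469 promoters. The Blnk promoter, at chr1:249770484-249770783 on the minus strand, and that of Vpreb3, at chr20:12718177-12718476 on the minus strand, are printed 5′ to 3′ with the octamer in capitals.
Blnk: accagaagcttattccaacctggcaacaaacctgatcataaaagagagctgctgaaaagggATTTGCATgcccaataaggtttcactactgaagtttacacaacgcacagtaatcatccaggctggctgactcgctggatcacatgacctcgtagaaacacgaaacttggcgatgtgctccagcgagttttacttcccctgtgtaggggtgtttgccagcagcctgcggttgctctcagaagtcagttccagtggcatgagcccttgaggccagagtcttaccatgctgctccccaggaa
Vpreb3: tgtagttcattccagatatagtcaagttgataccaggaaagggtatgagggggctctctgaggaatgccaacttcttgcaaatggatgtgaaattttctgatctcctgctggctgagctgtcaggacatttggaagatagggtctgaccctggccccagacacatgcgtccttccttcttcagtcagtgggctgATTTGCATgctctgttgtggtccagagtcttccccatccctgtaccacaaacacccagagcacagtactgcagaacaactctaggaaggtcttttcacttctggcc
The octamer filled bases 62 to 69 of the Blnk promoter, ending 181 bases before the start, and bases 195 to 202 of the Vpreb3 promoter, ending 48 bases before it. The core of the motif of EBF factors, CCCNNGGG, was in 8 of 35 and in 12.4% of all, and in no member, and with a T before it and an A after it, which is the longer EBF motif, it was in none of the 35 and in 0.834% of all. GAGGAA, bound by PU.1 and other ETS factors, was in 16 of 35 and in 27.6% of all, and among the members in Vpreb1a. CAGGTG, an E box bound by E proteins, was in 10 of 35 and in 18.8% of all, and among the members in Rag1 and Vpreb1a. A match of these letters is a description of the sequence, and a missing match says only that they are not in this window.

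Blnk, the adaptor, was the 1 member of the 3 measured that differed between OVX and sham bone, and it was lower after ovariectomy. Its centred log2 values were -0.10, -0.15 and -0.08 in STBB OVX pools, 0.14, -0.07 and 0.16 in LTBB OVX pools, -0.13, -0.05 and 0.05 in OVX pools and 0.68, 0.76 and 0.61 in sham pools. Every pool of ovariectomized rats lay below every sham pool, as did the OVX pools for 29.7%, the LTBB OVX pools for 31.2% and the STBB OVX pools for 30.9% of all genes. Between OVX and sham the log2 fold change was -0.72 (SE 0.077, 95% confidence interval -0.89 to -0.56, limma adjusted p = 2.97e-06), which is a ratio of 0.605. It was -0.79 for STBB OVX against sham (adjusted p = 1.25e-06) and -0.61 for LTBB OVX against sham (adjusted p = 1.54e-05). These comparisons share the sham arrays, so they are not independent of each other. Counted over the measured members, 1 of 3 passed in each, against 58.9% of all genes for OVX, 58.3% for LTBB OVX and 58.3% for STBB OVX, and in the lower direction 28.6%, 29.1% and 29%.

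The calls of Blnk in OVX and LTBB OVX depended on the scaling of the arrays, and that in STBB OVX turned only under the pan-leukocyte scaling (0.52). Quantile normalization gives the centred values of all arrays the same distribution, and genes called between OVX and sham went from 8367 to 3010. A call lost in that setting therefore does not show that the gene was unchanged. After quantile normalization of the arrays the log2 fold change between OVX and sham was -0.36 (limma adjusted p = 0.0580), that between LTBB OVX and sham was -0.13 (limma adjusted p = 0.477), and that between STBB OVX and sham was -0.49 and still passed (limma adjusted p = 0.016). Relative to the mean of the pan-leukocyte list in the same array the OVX value was 0.56 (limma adjusted p = 0.000563), with the median of all genes at 1.29. That scaling takes the same value from every gene of an array, so it cannot change where Blnk lies relative to other genes. With each of the 12 arrays left out in turn the OVX value at the deposited scaling stayed between -0.77 and -0.68.

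**Figure D1:**
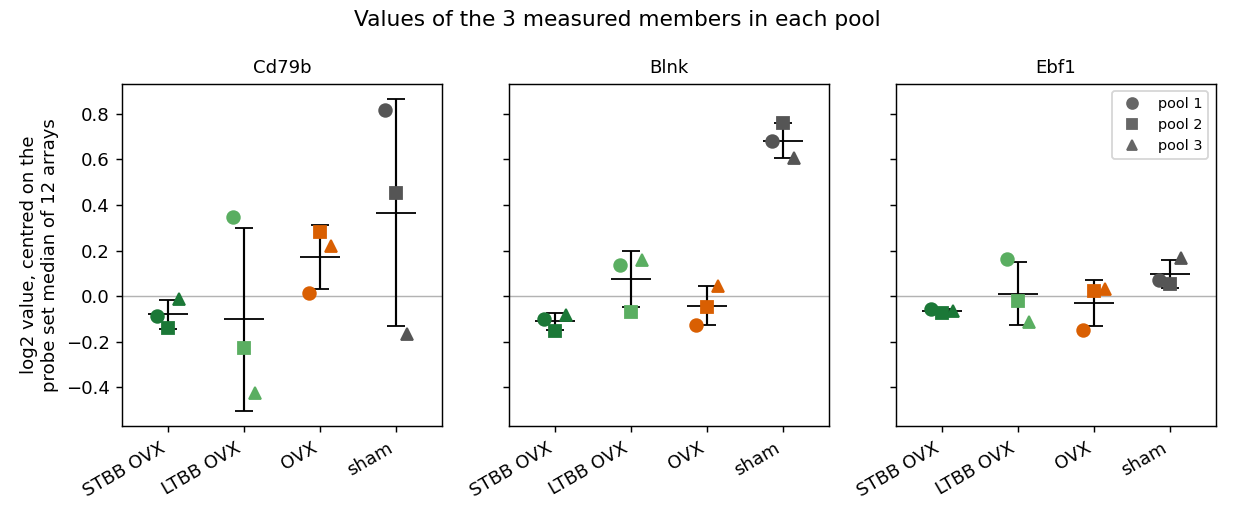
Centred log2 values of Cd79b, Blnk and Ebf1 (vertical axes) in STBB OVX, LTBB OVX, OVX and sham bone. Pool 1 is drawn as a circle, pool 2 as a square and pool 3 as a triangle, with the mean ± SD of 3 pools; Blnk is at 0.61 to 0.76 in sham pools and at or below 0.16 in all others, while the OVX and sham pools overlap for Cd79b.

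Cd79b, the receptor chain, did not pass between OVX and sham, and its sham pools were the most spread of any group. It had -0.09, -0.14 and -0.01 in STBB OVX pools, 0.35, -0.23 and -0.42 in LTBB OVX pools, 0.01, 0.28 and 0.22 in OVX pools and 0.82, 0.45 and -0.17 in sham pools. The third sham pool lay below all 3 OVX pools, and the OVX and sham pools overlapped. The log2 fold change of OVX against sham was -0.20 (95% confidence interval -0.68 to 0.29, limma adjusted p = 0.478), an interval that holds both a fall and a small rise. It was 0.25 after quantile normalization of the arrays, 1.09 relative to the pan-leukocyte list, where the median gene was at 1.29, and 0.029 without sham pool 1. Against sham, STBB OVX had -0.45 (95% confidence interval -0.93 to 0.035, limma adjusted p = 0.104) and LTBB OVX had -0.47 (95% confidence interval -0.95 to 0.013, limma adjusted p = 0.0883). Both passed without sham pool 3, at -0.71 in STBB OVX (limma adjusted p = 0.00605) and -0.74 in LTBB OVX (limma adjusted p = 0.00504), and with array weights, at -0.55 and -0.57. The weight of sham pool 3, 0.241, was the lowest of the 12 arrays. In LTBB OVX Cd79b also passed without LTBB OVX pool 1 (-0.69, limma adjusted p = 0.0153). Without sham pool 1, Cd79b passed against sham neither in STBB OVX (-0.22) nor in LTBB OVX (-0.24, limma adjusted p = 0.352). After quantile normalization of the arrays it had -0.27 in LTBB OVX against sham and did not pass (limma adjusted p = 0.688).

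Ebf1, the commitment factor, had small differences that did not pass in any comparison. Its values were -0.06, -0.07 and -0.07 in STBB OVX pools, 0.16, -0.02 and -0.11 in LTBB OVX pools, -0.15, 0.03 and 0.03 in OVX pools and 0.07, 0.05 and 0.17 in sham pools. The STBB OVX and the OVX pools lay below all sham pools, as did those of 30.9% and 29.7% of all genes, whereas the LTBB OVX pools overlapped with sham. The log2 fold change was -0.13 for OVX against sham (95% confidence interval -0.30 to 0.045, limma adjusted p = 0.191), -0.16 for STBB OVX against sham (limma adjusted p = 0.0975) and -0.086 for LTBB OVX against sham (limma adjusted p = 0.380). Relative to the pan-leukocyte list they were 1.16, 1.15 and 1.24, close to the 1.29, 1.31 and 1.31 of the median gene.

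The probe sets of Ebf1 did not move alike. In OVX against sham, 1368949_at had -0.12 (limma adjusted p = 0.342), 1382212_at -0.032 (limma adjusted p = 0.765) and 1392619_at -0.23 (limma adjusted p = 0.0999). Of these 1392619_at passed in STBB OVX against sham, at -0.38 (limma adjusted p = 0.0112), where 49.2% of all probe sets passed. A further 3 probe sets are listed for Ebf3 and Ebf1 together and were not counted for Ebf1. Of them 1385173_at was higher in OVX by 0.84 (limma adjusted p = 4.84e-06) and 1389712_at by 0.88 (limma adjusted p = 6.38e-06), where 49.8% of all probe sets passed, while 1396234_at had 0.026 (limma adjusted p = 0.854). In 1389712_at the sham pools stood at -0.59, -0.78 and -1.04. The probe sets 1385173_at and 1389712_at went the other way from those of Ebf1 alone, and which of the 2 genes they measure cannot be read from the annotation. Ebf2, a paralogue expressed in stromal cells, fell by 0.41 in OVX against sham (limma adjusted p = 0.0150), and Ebf4 had 0.14 and did not pass.

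**Figure D2:**
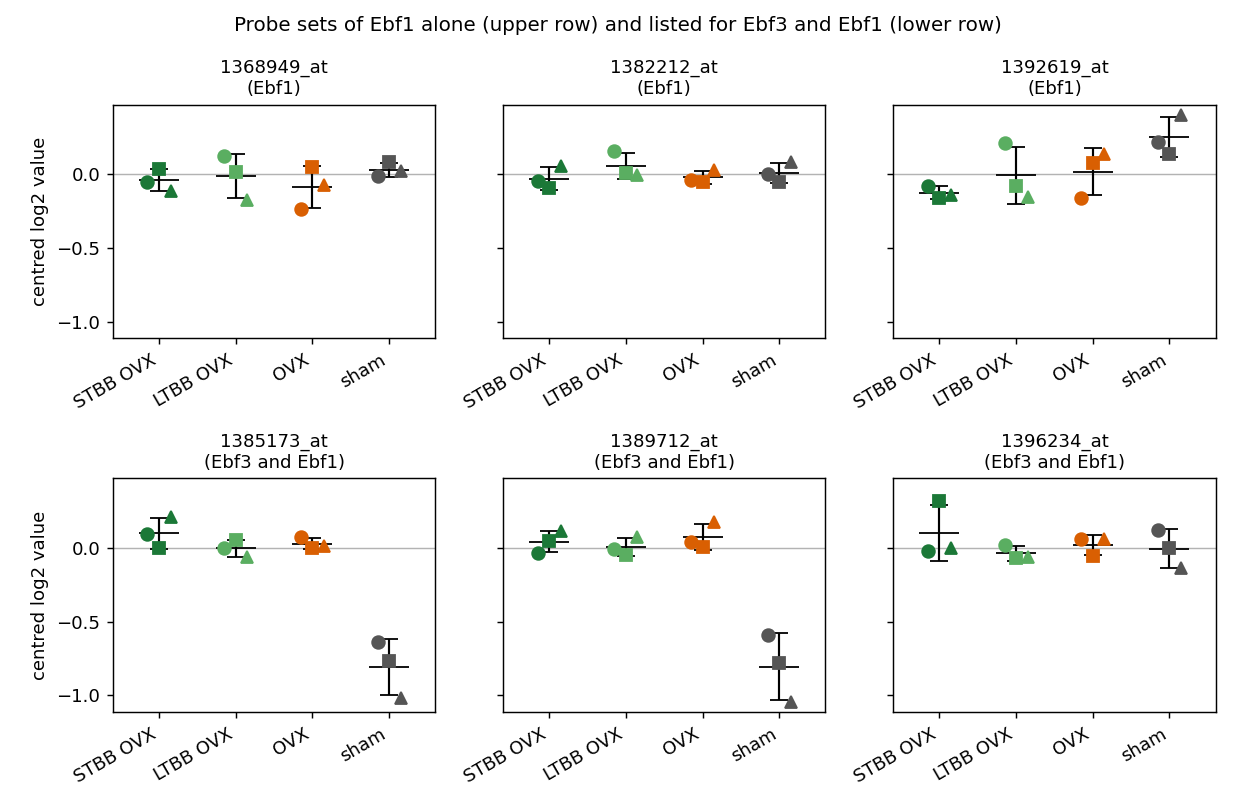
Centred log2 values (vertical axes) of the 3 probe sets annotated to Ebf1 alone (upper row) and the 3 annotated to Ebf3 and Ebf1 (lower row) in STBB OVX, LTBB OVX, OVX and sham bone. Points are pools and bars the mean ± SD (n = 3); 1385173_at and 1389712_at are lower in sham than in all other pools, whereas the probe sets of Ebf1 alone are not.

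Feeding BB diets did not move any member past the test. Between STBB OVX and OVX, between LTBB OVX and OVX and between STBB OVX and LTBB OVX, limma called 0 of 14217 genes (percent called 0 in each), and an unadjusted p under 0.05 was found for 2.89%, 2.31% and 3.4% of them. The fold changes of LTBB OVX against OVX were -0.27 for Cd79b (95% confidence interval -0.75 to 0.21), 0.12 for Blnk (-0.050 to 0.28) and 0.041 for Ebf1 (-0.13 to 0.21). Those of STBB OVX against OVX were -0.25 for Cd79b (-0.73 to 0.23), -0.069 for Blnk (-0.24 to 0.098) and -0.036 for Ebf1 (-0.21 to 0.14). The intervals leave room for changes of either sign, and are widest for Cd79b. All 3 STBB OVX pools lay below all 3 OVX pools for Cd79b, which was so for 5.13% of all genes.

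Between the BB diets, Cd79b had 0.022 (95% confidence interval -0.46 to 0.50), Blnk -0.19 (-0.35 to -0.019) and Ebf1 -0.077 (-0.25 to 0.096) in STBB OVX against LTBB OVX. The Blnk interval lay below 0 before adjustment (limma unadjusted p = 0.032 and adjusted p = 0.9999), and its STBB OVX pools lay below all LTBB OVX pools, as did those of 5.63% of all genes. Against all genes this is no call.

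**Figure D3:**
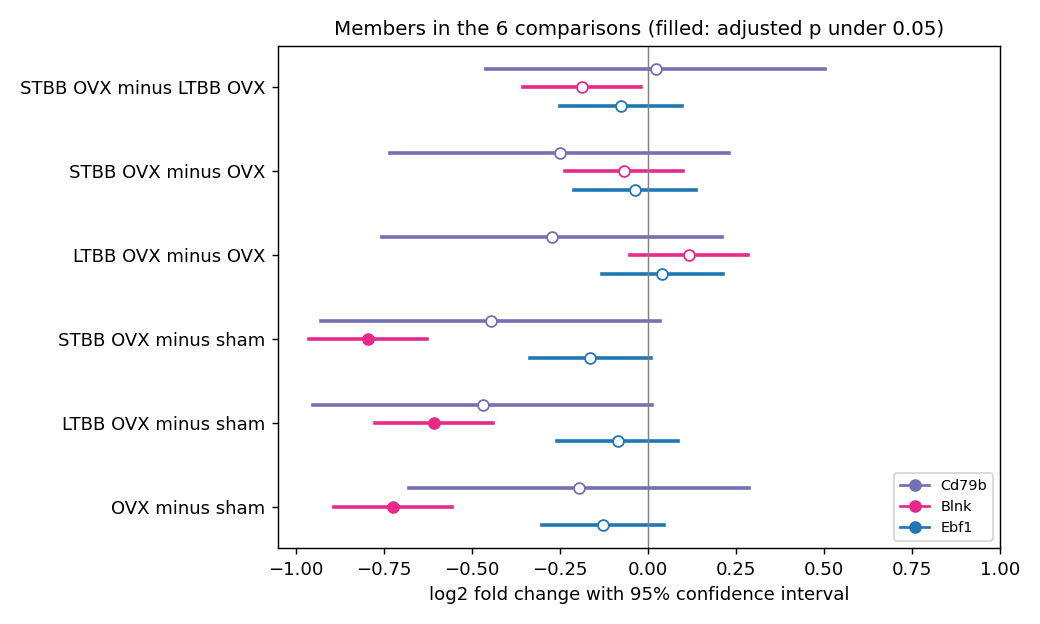
Log2 fold changes (horizontal axis) with 95% confidence intervals for Cd79b, Blnk and Ebf1 in the 6 comparisons (vertical axis). Filled points passed limma at an adjusted p under 0.05; at the deposited scaling Blnk is filled against sham in OVX (-0.72), LTBB OVX (-0.61) and STBB OVX (-0.79), and no other point is.

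Genes around the members, from lists of B lineage biology, were for the most part lower in OVX than in sham bone at the deposited scaling, whereas relative to the pan-leukocyte list 36 of 45 were higher and 3 lower, and of all 14217 genes 12958 were higher and 583 lower. Of 65 genes in 6 lists without the members 45 were measured and 20 were not analysed here. At the deposited scaling 29 fell, 7 rose and 9 did not pass, so 80% passed against 58.9% of all genes, and 64.4% were lower against 28.6%. Their median log2 fold change was -0.45, against 0.0047 for all genes. After quantile normalization of the arrays 6 fell and 4 rose, and 10 of the 36 calls were kept, those of Bcl11a, Btk, Dapp1, Bank1, Cd81, Jchain, Mzb1, Sdc1, Prdm1 and Xbp1, the last named after its value was seen. Over all genes that normalization took the calls from 8367 to 3010. The pan-leukocyte scaling raised all genes alike, so a gene that had fallen by less than the list did was higher there. In STBB OVX against sham 31 of 45 fell and 6 rose, so 68.9% were lower against 29% of all genes. In LTBB OVX against sham 28 fell and 6 rose, so 62.2% were lower against 29.1% of all genes. Of all genes 29.3% were higher in STBB OVX and 29.2% in LTBB OVX. All comparisons against sham share the sham arrays.

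Transcription factors of commitment gave 5 falls and 1 rise among 10 measured genes, Ebf1 included, with a median of -0.29. So 60% passed, close to the 58.9% of all genes, and 50% were lower against 28.6%. Bcl11a, needed for early B cells, fell by 1.94 on the log2 scale (SE 0.083), and Myb, a factor of proliferating progenitors of many blood lineages, fell by 1.69 (SE 0.12). Pou2af1, the octamer coactivator, fell by 0.85 (SE 0.17), with values of -0.10, -0.35 and -0.18 in STBB OVX pools, 0.45, -0.21 and -0.25 in LTBB OVX, -0.28, 0.10 and 0.18 in OVX and 0.88, 0.90 and 0.76 in sham pools. Irf8, shared with myeloid cells, fell by 0.61 (SE 0.13). Lef1, named after its value was seen, was the gene that rose, by 0.25.

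Of 7 genes in the list of the recombinase and the pre-B cell receptor only Vpreb3 was measured. It encodes a protein that binds the pre-B cell receptor's chains in the cell, and it fell by 0.93 (SE 0.13, limma adjusted p = 5.13e-05). It stood at -0.16, -0.19 and -0.15 in STBB OVX pools, 0.39, -0.18 and -0.21 in LTBB OVX, -0.09, 0.09 and 0.15 in OVX and 1.09, 0.96 and 0.88 in sham pools. No pool of ovariectomized rats reached the lowest sham pool, as was so for the OVX pools in 29.7% of all genes. For the LTBB OVX pools it was 31.2% and for the STBB OVX pools 30.9%. After quantile normalization of the arrays Vpreb3 had -0.29 in OVX against sham and did not pass (limma adjusted p = 0.601).

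B cell receptor signalling, which holds Cd79b and Blnk, had 11 falls and 2 rises among 15 measured genes, with a median of -0.69. In this list 86.7% passed against 58.9% of all genes, and 73.3% were lower against 28.6%. Btk, the kinase that BLNK brings to the receptor, fell by 1.47 (SE 0.11), and its sham pools lay between 1.24 and 1.55. The adaptors Dapp1 and Bank1 fell by 1.30 (SE 0.099) and 1.25 (SE 0.11). Named after their values were seen, Syk fell by 0.62 and Plcg2 by 0.90 at the deposited scaling, whereas Cd79b did not pass. Neither Syk nor Plcg2 passed after quantile normalization of the arrays (limma adjusted p = 0.711 and 0.458). Cd81, a tetraspanin that most cells carry, rose by 1.26 (SE 0.060), as did Pik3ap1, named after its value was seen, by 0.51.

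Receptors and phosphatases that dampen the signal gave 3 falls among 4, with a median of -0.42: Fcgr2b, the inhibitory Fc receptor that myeloid cells also carry, fell by 1.30 (SE 0.16), Cd22 by 0.45 (SE 0.11) and the phosphatase Inpp5d by 0.38, while Ptpn6 had -0.28 and did not pass. That is 75% lower, against 28.6% of all genes. Surface genes of mature B cells gave 7 falls and 1 rise among 12, with a median of -0.36. Here 66.7% passed against 58.9% of all genes, and 58.3% were lower against 28.6%. The 4 that did not pass in OVX against sham were Fcer2 (-0.014), Cxcr5 (0.025), Cd24 (-0.12) and Fcrla (-0.21). These 4 are given with their results already known, outside the choice by largest change. Cd37, a tetraspanin of leukocytes, fell by 1.35 (SE 0.21), the complement receptor Cr2 by 0.93 (SE 0.11), Ms4a1, which encodes CD20, by 0.79 (SE 0.18) and the IgM Fc receptor Fcmr by 0.62 (SE 0.14). Plasma cell genes were split, with 3 falls and 3 rises among 6 and a median of 0.30. So 100% passed against 58.9% of all genes, and 50% were lower against 28.6%. Jchain, the joining chain of IgM and IgA, fell by 2.24 (SE 0.13) and Mzb1, a chaperone of plasma cells, by 1.45 (SE 0.12), while Sdc1, a surface proteoglycan also found on epithelium and skeletal cells, rose by 3.29 (SE 0.13) and Prdm1, a repressor that osteoclasts also use, by 2.22 (SE 0.093).

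**Figure D4:**
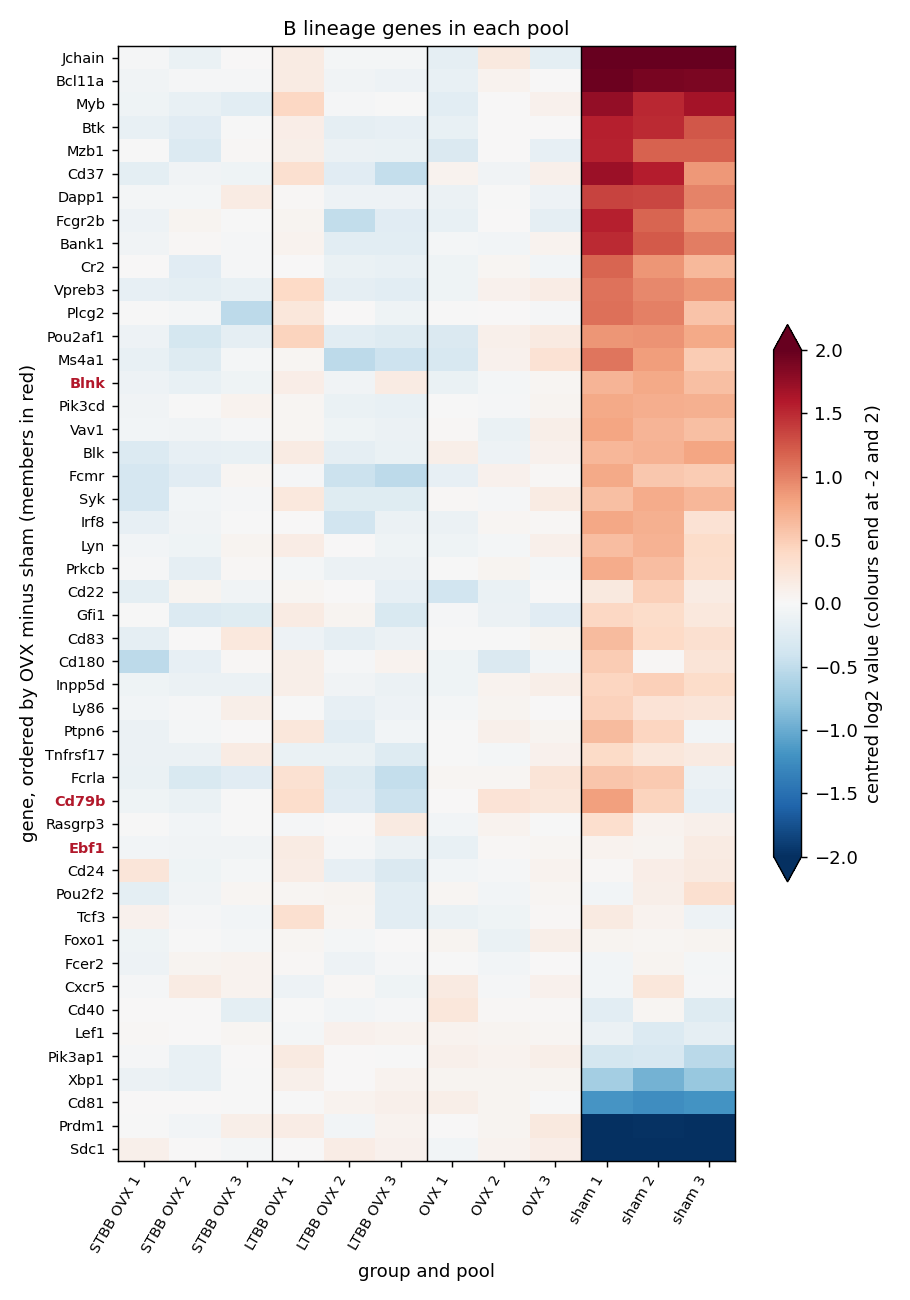
Centred log2 values (colour, ending at -2 and 2) of 48 measured B lineage genes (rows, ordered by OVX minus sham, members in red) in the 12 pools (columns, STBB OVX, LTBB OVX, OVX and sham). The sham columns stand apart from all others in most rows at the deposited scaling, and LTBB OVX pool 1 is the highest LTBB OVX pool in 41 of 48 genes, which was not counted over all genes.

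Receptors of lymphoid progenitors and signals of their niche were mixed at the deposited scaling. Among 9 progenitor genes 5 fell, 2 rose and 2 did not pass (median -0.55). So 77.8% passed against 58.9% of all genes, and 55.6% were lower against 28.6%. Cxcr4, the receptor of CXCL12 on many blood cells, fell by 1.80 (SE 0.11), Spn, which encodes CD43, by 1.64 (SE 0.095) and Flt3, a cytokine receptor of early progenitors, by 0.75 (SE 0.17), while Il2rg, the shared chain of the IL-7 receptor, rose by 0.90 (SE 0.14). Il7r, its other chain, named after its value was seen, had -0.10 and did not pass. Among 9 niche genes 5 rose, 0 fell and 4 did not pass (median 0.33). So 55.6% passed against 58.9% of all genes, and since each of these was a rise, 55.6% were higher against 30.3%. Cxcl12 rose by 1.35 (SE 0.17), Tslp, a cytokine related to IL-7, by 0.94 (SE 0.12), Il7 by 0.83 (SE 0.10) and Kitlg, stem cell factor, by 0.65 (SE 0.11). Esr1, the estrogen receptor alpha, named after its value was seen, had -0.030 and did not pass. After quantile normalization of the arrays 3 of the 7 progenitor calls were kept (Cxcr4, Spn and Il2rg) and 1 of the 5 niche calls (Il7).

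Lists of other blood lineages differed in direction at the deposited scaling. Pan-leukocyte genes fell in 12 of 14 (median -1.35), neutrophil genes in 7 of 7 (median -2.71), erythroid genes in 12 of 12 (median -2.73) and proliferation genes in 10 of 10 (median -1.29), while T and NK cell genes gave 7 falls and 4 rises among 18 (median -0.20) and macrophage genes 1 fall and 6 rises among 9 (median 0.69). In that order 85.7%, 100%, 100%, 100%, 61.1% and 77.8% passed, against 58.9% of all genes. In the same order 85.7%, 100%, 100%, 100%, 38.9% and 11.1% were lower, against 28.6% of all genes. The T and NK cell list was thus close to all genes in the share that passed. The B lineage median of -0.45 thus lay between that of the T and NK cell list and that of the pan-leukocyte list. Of the osteoblast list 8 of 9 rose (median 2.60), which is 88.9% against the 30.3% of all genes that rose. The part of cell composition in any of these was not tested.

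**Figure D5:**
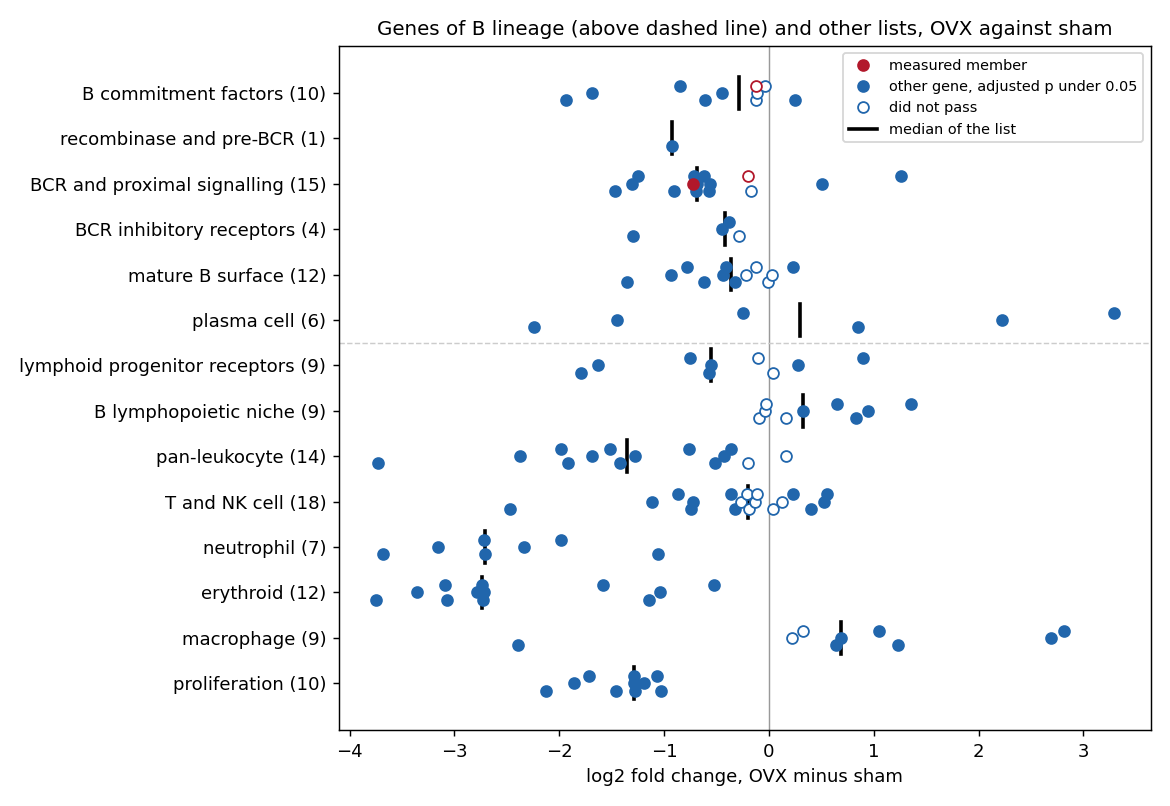
Log2 fold changes of OVX against sham (horizontal axis) of single genes in B lineage lists (above the dashed line) and other lists (number measured in brackets). Filled points passed limma at an adjusted p under 0.05, red points are members and black bars are list medians, which run over the 14 lists drawn, at the deposited scaling, from -2.73 (erythroid) to 0.69 (macrophage); the skeletal muscle (-6.24) and osteoblast (2.60) lists are among those not drawn.

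At the deposited scaling no B lineage gene was called between the diets. In STBB OVX against OVX the median of these genes without the members was -0.055, with 36 of 45 below 0, in LTBB OVX against OVX -0.045, with 31 below 0, and in STBB OVX against LTBB OVX -0.041, with 29 below 0, and limma called 0 of them in each. The medians of all genes were -0.0088, -0.0056 and -0.0033 in that order. How many of all genes lay below 0 was not counted. LTBB OVX pools differed among themselves: pool 1 was the highest of the 3 in 41 of 48 measured B lineage genes, members included, as for Cd79b (0.35 against -0.23 and -0.42), Vpreb3, Pou2af1 and Myb. In sham, pool 3 was the lowest of the 3 in 32 of the 48 and pool 1 the highest in 33. In what share of all genes these pools were the highest or lowest was not counted. The pan-leukocyte genes had the same pools at these ends, with LTBB OVX pool 1 at 0.081 against -0.15 and -0.19, and sham pool 3 at 0.98 against 1.45 and 1.28.

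Genes whose pattern was most like that of each member were found by Pearson's r over the 12 arrays, as a description, since the arrays share the split between sham and ovariectomized rats. For Cd79b they were Fcrla, an Fc receptor-like protein of B cells (r = 0.940), Cmip (0.936) and Ptpn6 (0.918), and over the 9 arrays of ovariectomized rats r was 0.924, 0.929 and 0.807. For Blnk they were Ppp2r5b (0.993), Tmem229b (0.989) and Sephs2 (0.986), with 0.921, 0.858 and 0.903 over the 9 arrays. For Ebf1 they were Lmo4 (0.918), Prrc2a (0.861) and Bcl7c (0.844), with 0.908, 0.823 and 0.745. The Fcrla values of the sham pools, 0.56, 0.53 and -0.12, put pool 3 lowest, as those of Cd79b did.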

How the data were processed

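Affymetrix rat genome arrays of 12 RNA pools were used, 3 per group, with groups taken from the sample labels. The authors deposited log2 values made by robust multiarray analysis (RMA) and normalized in GeneSpring per array and per probe set, which removes the level of a probe set. The submitters' notes name GCOS and RMA, and their versions were not given in sources used here. Of 31099 probe sets 57 controls were left out. Platform annotation held 1 symbol on 20826 probe sets, more than 1 on 436 and none on 9780, and 20758 symbols were updated by gene ID through RefSeq genes of GRCr8. Probe sets of a gene were averaged (4525 genes had several), giving 14217 genes.

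Group means were fitted over all 12 arrays with limma 3.58.1 in R 4.3.3, with 6 contrasts and Benjamini-Hochberg adjustment over all genes at 0.05, two-sided. Intervals are at 95%. An exact permutation of 3 against 3 pools cannot go below p = 0.10. On simulated data of 14217 genes, 200 of them changed, the fit recovered 74% of changes of log2 0.5 and 99% of changes of log2 1 between OVX and sham, with 9 false calls. The simulated noise was independent between genes and every change was a rise in OVX. In the data 58.9% of genes were called, in both directions, so these rates need not hold there. Precision is limited by the number of arrays.

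The members and the 19 gene lists were chosen with earlier results of these data known. Named genes are the members, up to 4 genes per list with the largest change between OVX and sham, and the 3 genes most like each member. Alternatives covered scaling, weights, samples fitted, the replicate block, probe set summaries, a fold of at least 1.5 and each array left out. RT-PCR, blots and cell cultures were not analysed here. Figures used matplotlib 3.10.9 in Python 3.11.15.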

Additional observations from a re-analysis of the deposited data

How the results depend on the processing

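Of 189 member fold changes under settings other than left-out arrays 170 kept direction and side of the threshold, 4 lost the call, 2 gained it and 13 turned sign; with arrays left out 207 of 216 were kept, 3 gained a call and 6 turned sign. In OVX against sham the number of members lower was 1, and 0 after quantile normalization, relative to the pan-leukocyte list or with a fold of at least 1.5; the number higher was 0, and 3 relative to that list. B lineage genes lower were 29, and 6, 3 and 10 under these settings; those higher were 7, and 4, 36 and 4. In LTBB OVX against sham the number of members lower was 1, and 0 under these settings, 2 with array weights and 1 to 2 with arrays left out; in STBB OVX against sham it was 1, and 0 relative to the leukocyte list, 2 with array weights and 1 to 2 with arrays left out. Members higher relative to the leukocyte list were 3 in both. Under that list Cd79b, Blnk and Ebf1 turned to 1.09, 0.56 and 1.16 in OVX, 0.85, 0.71 and 1.24 in LTBB OVX and 0.87, 0.52 and 1.15 in STBB OVX against sham, with the median of all genes at 1.29, 1.31 and 1.31, since the list itself fell. After quantile normalization Cd79b in OVX against sham was 0.25, Ebf1 in LTBB OVX against sham 0.016 and Cd79b in STBB OVX against LTBB OVX -0.022; the first Ebf1 probe set by ID gave 0.045 in STBB OVX against OVX. With arrays left out Cd79b ranged from -0.46 to 0.029 in OVX against sham and from -0.14 to 0.25 between the BB diets, and Ebf1 from -0.035 to 0.10 in LTBB OVX against OVX. The causes were not tested. The genes called between OVX and sham were 8367, and 3010 after quantile normalization, 2874 with a fold of at least 1.5 and 13541 (12958 higher) relative to the leukocyte list, against 4301 higher and 4066 lower. Quantile normalization called 1 gene in STBB OVX against OVX and 10 between the BB diets, and a fit of the 2 groups alone 40 in STBB OVX against OVX; without LTBB OVX pool 3 there were 8 in each, and without STBB OVX pool 1 there was 1 in each, with no member among any of them. Nothing in the labels ties same-numbered pools to each other: their deviations correlated at -0.38 to 0.23, and 4 of 12 arrays were closest to their own number. With a replicate block the number of members lower in OVX against sham was 1 (Blnk, limma adjusted p = 1.64e-05) and B lineage genes gave 29 lower and 7 higher, so it changed no member call.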

Other observations

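Genes of non-homologous end joining, which closes the breaks that the recombinase makes, for the most part did not pass in OVX against sham: of 7 measured 1 rose, 1 fell and 5 did not pass, with a median of 0.022, so 28.6% passed against 58.9% of all genes. Prkdc, the catalytic kinase subunit, rose by 0.59 and Dclre1c, the nuclease Artemis, fell by 0.26. Adipocyte genes gave 2 rises and 3 falls among 8, with a median of -0.20, so 62.5% passed, close to the 58.9% of all genes.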
